A study of Mus musculus with 6 samples.

Results

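A group of 8 brain-enriched microRNAs (miRNAs) other than miR-124 and miR-9 was followed in the outer coats of the mouse eye, that is the retinal pigment epithelium (RPE) with the choroid and sclera, after laser injury. The injury leads to choroidal neovascularization (CNV), the growth of new vessels from the choroid. The miRNAs were chosen by name, with earlier results of these data known, and are 8 of the 1836 miRNAs and of the 2334 small RNAs listed. They are mmu-miR-128-3p, mmu-miR-129-5p, mmu-miR-129-1-3p, mmu-miR-129-2-3p, mmu-miR-135a-5p, mmu-miR-135b-5p, mmu-miR-137-3p and mmu-miR-138-5p. The CNV group had 3 libraries from eyes of male mice of 7 to 8 weeks that received 25 burns each around the optic disc (532 nm, 100 mW, 0.1 s, 50 µm) and were removed 7 days later. The control group had 3 libraries from age-matched male mice without laser. Each library was made from a pool of 4 eyes. The labels do not give the strain, nor do they say whether the pools came from different mice, so the spread between pools may be partly technical.

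A miRNA is cut from a hairpin precursor and guides the silencing machinery to messenger RNAs that pair with its seed, the bases near its 5′ end. Many tissues share their miRNAs, but a small set is concentrated in neurons, and the retina, as part of the central nervous system, expresses much of that set. Among the 8, miR-128 dampens neuronal excitability in mice, miR-129 takes part in the downscaling of synapses in rat neurons, miR-135 acts on the serotonin transporter and receptor in mouse serotonin neurons, miR-137 lies at a human schizophrenia risk locus and acts on neural progenitors in mice, and miR-138 limits the size of dendritic spines in rat neurons. The RPE, choroid and sclera contain few neurons, and the neural retina lies directly against the RPE.

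The mature sequences are shown because the miRNAs are grouped by where they are expressed and not by sequence, and the group spans several seed families. RefSeq entries (build GRCm38.p6) matched 6 of the 8, all but miR-135b-5p and miR-129-1-3p. Each is written 5′ to 3′ with the seed, bases 2 to 8, in capitals.
mmu-miR-128-3p: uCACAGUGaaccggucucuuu
mmu-miR-129-5p: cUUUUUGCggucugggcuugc
mmu-miR-129-2-3p: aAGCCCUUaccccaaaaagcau
mmu-miR-135a-5p: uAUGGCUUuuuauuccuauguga
mmu-miR-137-3p: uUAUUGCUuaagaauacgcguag
mmu-miR-138-5p: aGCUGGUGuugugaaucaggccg

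The 6 seeds printed differ from each other. As background, miR-135b-5p belongs to the seed family of miR-135a-5p, and miR-129-1-3p to that of miR-129-2-3p, so the seeds of all 8 are not all different. The 6 sequences printed are 21 to 23 nt long, so their levels need no correction for length, although ligation can favour some sequences over others. None of the 8 had counts identical to those of another miRNA in all 6 libraries.

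The miRNAs come from 10 precursor genes, and 4 of the 6 mature sequences shown are made from a pair of genes on different chromosomes. In build GRCm38.p6 miR-128-3p lies at chr1:128202404-128202424 on the plus strand, in an intron of R3hdm1, and at chr9:112118644-112118664 on the minus strand, in an intron of Arpp21. The sequence of miR-129-5p lies at chr6:29022624-29022644 on the plus strand, in an exon of the long noncoding RNA Gm3294, and at chr2:94241419-94241439 on the minus strand, in an intron of Mir670hg. For miR-135a-5p the places are chr9:106154140-106154162 on the plus strand, in an intron of the noncoding D030055H07Rik, and chr10:92072141-92072163 on the minus strand, in an intron of the noncoding Rmst. The single gene of miR-137 places miR-137-3p at chr3:118433901-118433923 on the plus strand, in an exon of the noncoding Gm26871. The copies of miR-138-5p lie at chr9:122682898-122682920 and chr8:94324312-94324334, both on the plus strand, in exons of the pseudogene Gm47135 and the long noncoding RNA C78859. Host genes are from GENCODE M21.

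The opposite arms of the precursors, which differ between the genes of a pair, were counted separately. The 3p arm of miR-129-2 had 2980 counts over the 6 libraries and that of miR-129-1 had 479. How reads that match both were counted was not stated, so counts may be shared within this pair, and likewise between miR-135a-5p and miR-135b-5p. For miR-135a the 3p arm of the Rmst copy had 558 counts (46 to 191 per library) and that of the other copy 9 (0 to 5). The arm miR-138-2-3p had 56 counts and miR-138-1-3p had 29, and miR-128-1-5p had 25 and miR-128-2-5p had 4. The first-named arm of each pair had more counts in 6 of 6 libraries. How well each opposite arm is retained can differ between precursors, so these counts do not give the share of each gene in the common arm.

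The CNV libraries held 5321436 to 5820315 counts, and the control libraries 5057142 to 12839386, with control replicate 2 the deepest. The edgeR quasi-likelihood test was run over 997 small RNAs with enough reads, and 3 of them, or 0.301%, passed an adjusted p of 0.05 in either direction, all higher in CNV. Levels below are in CPM, read counts relative to a library total that was scaled by trimmed mean of M-values (TMM). The RPE miRNAs miR-204 and miR-211, with both arms of each, together made up 4571 to 6543 CPM in CNV libraries and 6838 to 7039 CPM in control libraries, so markers of the labelled tissue were present. The photoreceptor miRNAs, both arms of miR-182, miR-183 and miR-96, summed to 24759 to 49520 CPM in CNV libraries and 49385 to 75850 CPM in control libraries, so miRNAs of the neural retina were present as well. Control replicate 1 stood apart in its skeletal muscle miRNAs, as given with miR-128-3p below.

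All 8 neuronal miRNAs had lower mean levels in CNV than in control tissue, and none passed the test over all small RNAs. Their median log2 fold change was -0.90, with single values between -1.21 and -0.59, against a median of 0.01 over the 541 tested miRNAs, of which 48.8% were negative. All 8 passed the filter on low counts. At an unadjusted p under 0.05, 7 of the 8 were lower in CNV, against 9.06% of the tested miRNAs. The CNV and control pools did not overlap for 5 of the 8, with CNV lower, against 11.3% of the tested miRNAs. The 5 were miR-129-5p, miR-135a-5p, miR-135b-5p, miR-137-3p and miR-138-5p. Scaled by total counts alone, the 8 had a median of -1.05 and all tested miRNAs one of -0.14. In bulk tissue, fewer cells of a type and less RNA per cell cannot be told apart.

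The adjusted p in edgeR's test ranged over the 8 from 0.141 for miR-138-5p to 0.560 for miR-128-3p. DESeq2 called 1 of the 8 lower, miR-138-5p (adjusted p 0.0298), against 1.26% of the miRNAs it gave an adjusted p. With no filter on low counts edgeR called all 8 lower, against 1.74% of the 1836 miRNAs. Only 541 of those 1836 passed the filter, as all 8 did, so the 2 shares are of unlike sets. With a mean of at least 20 CPM as the filter, 5 of the 8 were tested. Of these 5, 4 were lower at an unadjusted p under 0.05 (11.5% of the miRNAs tested there) and 3 did not overlap between groups (13.7%). Without CNV replicate 2, 4 of the 8 were lower at an unadjusted p under 0.05, against 3.40% of the miRNAs tested. The count was 6 of the 8 without CNV replicate 1 (6.29% of miRNAs), without CNV replicate 3 (14.1%) or without control replicate 1 (6.58%). It was 7 without control replicate 2 (10.7%) and 5 without control replicate 3 (6.46%).

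**Figure D1:**
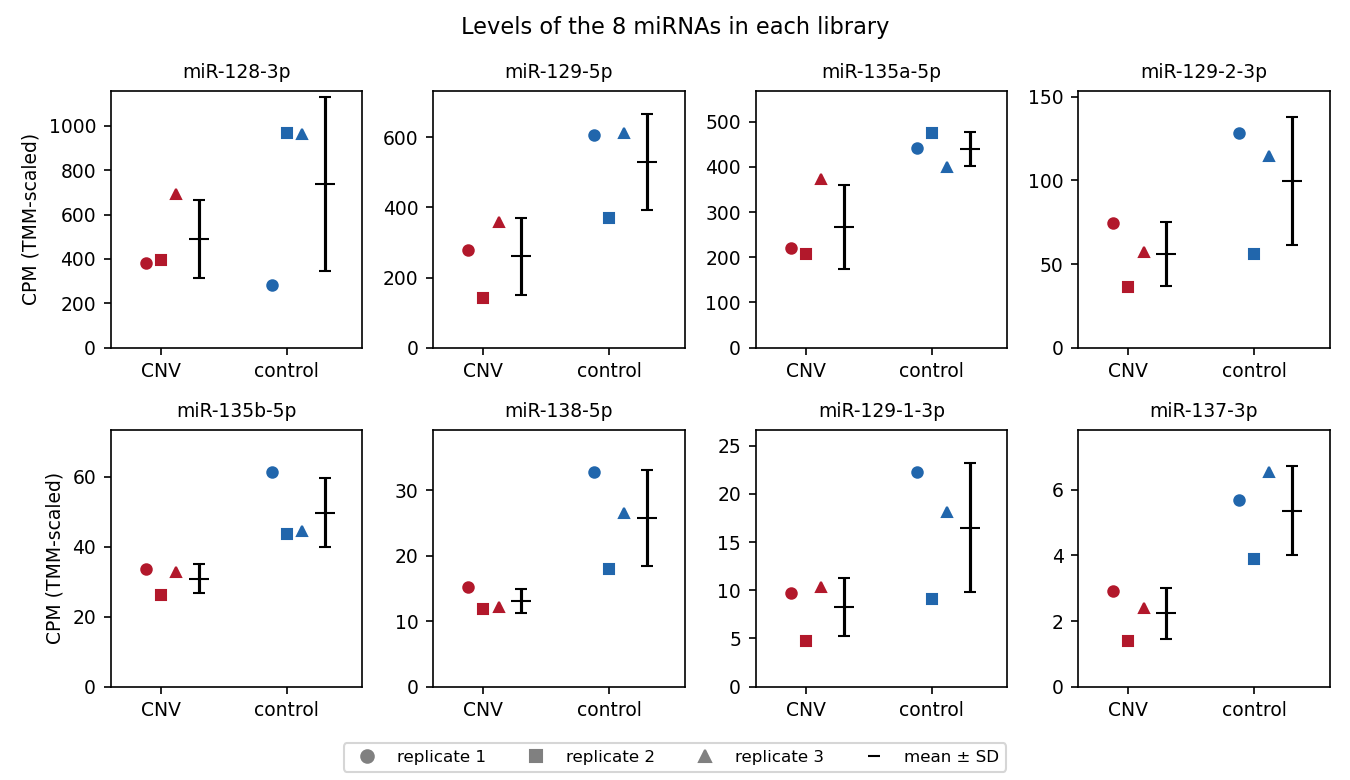
Level of each miRNA (vertical axis, TMM-scaled CPM, from 0) in the 3 CNV and the 3 control libraries, with a marker shape per replicate and the mean ± SD beside the points, in order of mean level. For 5 of the 8 every CNV point lies below every control point, while miR-128-3p has its lowest point, 284 CPM, in control replicate 1.

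**Figure D2:**
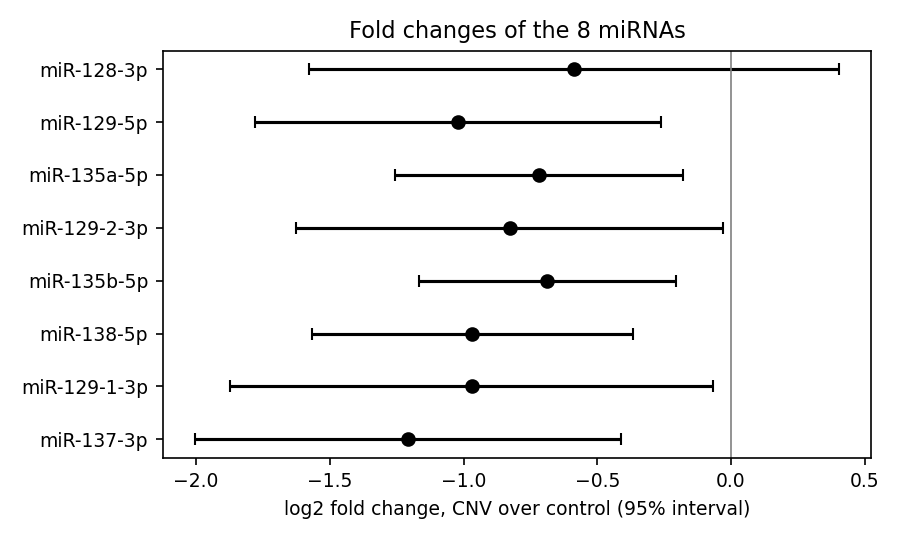
Log2 fold change of CNV over control (horizontal axis) with its 95% interval from edgeR's fit, in order of mean level from the top. All 8 points are negative, and the interval of miR-128-3p alone includes 0, from -1.58 to 0.40.

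The levels of the 8 covered more than 2 orders of magnitude. By mean over the 6 libraries the order was miR-128-3p (614 CPM), miR-129-5p (395 CPM), miR-135a-5p (353 CPM), miR-129-2-3p (77.7 CPM), miR-135b-5p (40.3 CPM), miR-138-5p (19.4 CPM), miR-129-1-3p (12.4 CPM) and miR-137-3p (3.80 CPM). The lower 5 kept their places in each of the 6 libraries. The upper 3 changed places between libraries, and their levels overlapped. Among the 541 tested miRNAs the first, miR-128-3p, was number 95 by mean level and the last, miR-137-3p, number 471.

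The miR-129 family was measured through its common 5p arm and the 3p arms of both genes. The level of miR-129-5p was 280, 143 and 359 CPM in CNV replicates 1 to 3, and 605, 371 and 611 CPM in control replicates 1 to 3. The highest CNV pool lay just under the lowest control pool, control replicate 2. Mean levels were 260 ± 109 CPM in CNV and 529 ± 137 CPM in control (SD, n = 3 each), a log2 fold change of -1.02 (SE 0.33, adjusted p 0.195 in edgeR's test).

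The 3p arm miR-129-2-3p was at 74.3, 36.0 and 57.4 CPM in the CNV pools and at 128, 55.9 and 115 CPM in the control pools. Here control replicate 2 lay below CNV replicates 1 and 3, so the groups overlapped. The log2 fold change was -0.83 (SE 0.35, adjusted p 0.270).

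The rarer miR-129-1-3p rested on 50, 24 and 60 counts in the CNV pools and on 129, 127 and 89 counts in the control pools. Scaled by depth these were 9.72, 4.77 and 10.3 CPM in CNV and 22.2, 9.13 and 18.2 CPM in control, with control replicate 2 again inside the CNV range. The log2 fold change was -0.97 (SE 0.40, adjusted p 0.257). All 3 mature forms were thus lowest in CNV replicate 2, and within the control group lowest in control replicate 2. Without control replicate 2 the groups did not overlap for 7 of the 8 miRNAs, against 24.1% of the miRNAs tested.

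The miR-135 family has the member miR-135a from a pair of genes and miR-135b from a gene in an intron of Lemd1 on chromosome 1. The level of miR-135a-5p was 221, 207 and 373 CPM in the CNV pools and 442, 474 and 400 CPM in the control pools. The control pools lay close together, and CNV replicate 3 came near to them. The means were 267 ± 92.2 CPM in CNV and 439 ± 37.0 CPM in control (SD, n = 3 each), a log2 fold change of -0.72 (SE 0.24, adjusted p 0.199). Without CNV replicate 3 the log2 fold change was -1.12, and miR-135a-5p passed edgeR's test (adjusted p 0.0335), against 1.26% of the miRNAs tested that were called lower there.

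For miR-135b-5p the levels were 33.6, 26.1 and 32.8 CPM in CNV and 61.2, 43.5 and 44.5 CPM in control. The CNV pools, at 30.8 ± 4.16 CPM, all lay under the control pools, at 49.7 ± 9.96 CPM (SD, n = 3 each). The log2 fold change of -0.69 (SE 0.21, adjusted p 0.177) was close to that of miR-135a-5p. Of the opposite arms of the miR-128, miR-135, miR-137 and miR-138 precursors only miR-135a-2-3p was abundant enough to test, with 66, 46 and 77 counts in the CNV pools and 92, 191 and 86 counts in the control pools. Its groups did not overlap after scaling, at 12.8, 9.15 and 13.2 CPM in CNV and 15.9, 13.7 and 17.6 CPM in control (log2 fold change -0.41, SE 0.23, adjusted p 0.406). The other 7 arms had at most 21 counts in any library.

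The rarest of the 8, miR-137-3p, had the lowest fold change. It was counted 15, 7 and 14 times in the CNV pools and 33, 54 and 32 times in the control pools. The 7 counts of CNV replicate 2 have an exact Poisson interval of 2.81 to 14.4, and the 54 of the deep control replicate 2 an interval of 40.6 to 70.5, both 95% and for counting error only. In CPM the values were 2.92, 1.39 and 2.41 in CNV and 5.69, 3.88 and 6.53 in control, with no overlap. The log2 fold change was -1.21 (SE 0.35, adjusted p 0.168).

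The level of miR-138-5p was 15.2, 11.9 and 12.2 CPM in CNV (78, 60 and 71 counts) and 32.8, 18.0 and 26.5 CPM in control (190, 251 and 130 counts). The CNV pools lay close together, under all of the more widely spread control pools. The log2 fold change was -0.97 (SE 0.26), which corresponds to 0.512 of the control level.

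The most abundant of the 8, miR-128-3p, did not separate the groups. Its level was 383, 394 and 695 CPM in the CNV pools and 284, 966 and 962 CPM in the control pools. Control replicate 1 was lower than every CNV pool, although the other 7 miRNAs were on average 0.29 log2 units above the control mean in that library. The log2 fold change of -0.59 (SE 0.44) had a 95% interval of -1.58 to 0.40 (adjusted p 0.560 in edgeR's test). It was -0.96 without control replicate 1 (adjusted p 0.168), -0.99 without CNV replicate 3 and -0.38 without control replicate 3.

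The pools that were low in miR-128-3p were only in part those that were low in the other 7. CNV replicates 1 and 2 were low in both, and control replicate 1 in miR-128-3p alone. On average over those 7, CNV replicates 1 to 3 lay -0.70, -1.37 and -0.67 log2 units from the mean of the control pools, and control replicates 1 to 3 at 0.29, -0.41 and 0.12. For miR-128-3p the CNV pools were at -0.74, -0.70 and 0.12 and the control pools at -1.18, 0.59 and 0.58. As a description over the 6 libraries, which share a depth and a scaling per library, Pearson's r of the log2 levels was 0.53 to 0.97 (median 0.89) for the 21 pairs among the 7. Those pairs include both 3p arms of miR-129 and both miR-135 members, which may share reads. Between miR-128-3p and each of the 7 it was -0.08 to 0.48 (median 0.01). This division of the 8 was made after their values were seen.

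**Figure D3:**
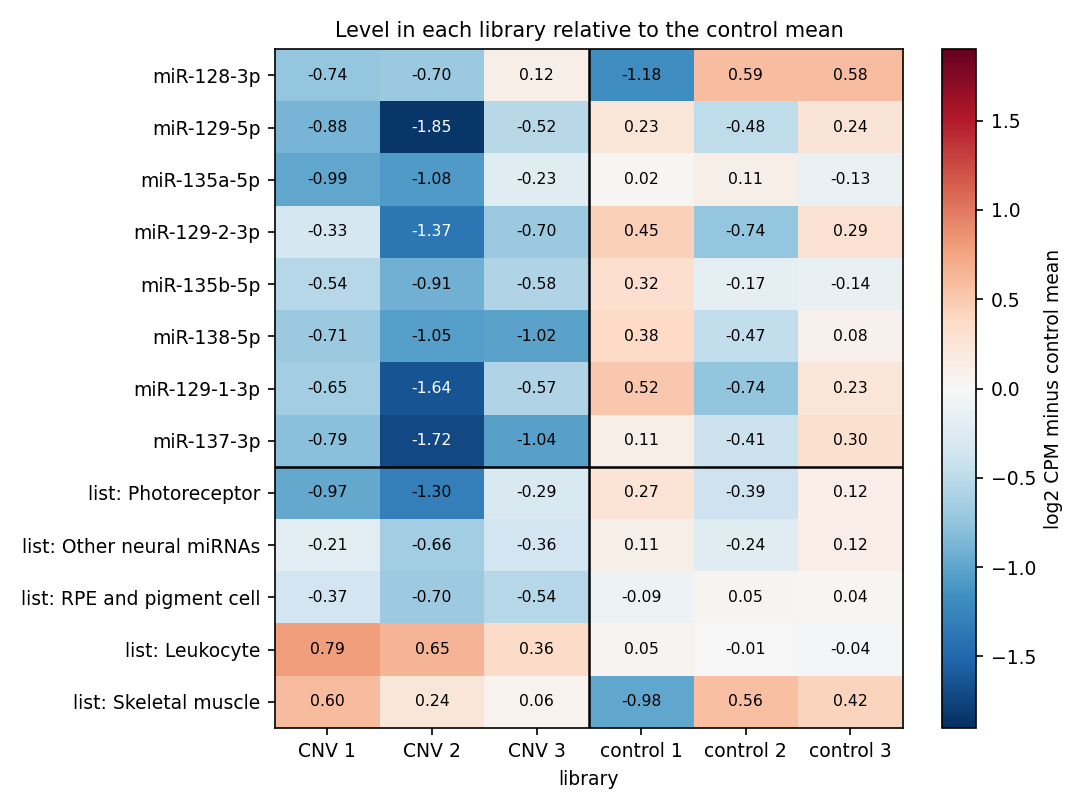
Difference in log2 CPM from the control mean (colour and printed value) for each of the 8 miRNAs, and the mean of the same over each of 5 comparison lists, in the 6 libraries. In control replicate 1 miR-128-3p (-1.18) and the skeletal muscle list (-0.98) are low, while miR-129-1-3p (0.52) is high.

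The skeletal muscle list held miR-1a-3p, miR-133a-3p, miR-133b-3p and miR-206-3p, which are made in muscle fibres such as those of the extraocular muscles attached to the sclera. Relative to its control mean it lay at 0.60, 0.24 and 0.06 log2 units in the CNV pools and at -0.98, 0.56 and 0.42 in the control pools. The sum of its 4 miRNAs was 58088 to 91972 CPM in CNV and 34815 to 92030 CPM in control, and none of the 4 was at 0. The most specific of them, miR-206-3p, was at 1868, 1721 and 2453 CPM in the CNV pools and at 355, 2811 and 2029 CPM in the control pools. Control replicate 1 was thus the lowest library for miR-206-3p as well as for miR-128-3p, and it was the lowest for the rest of the list too. Within the CNV pools the rest of the list ran opposite to miR-128-3p. There miR-1a-3p was at 80469, 67698 and 50293 CPM in replicates 1 to 3, and miR-133a-3p and miR-133b-3p fell in the same order. The part of muscle RNA in the levels of miR-128-3p was not tested.

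The patterns most like those of the neuronal miRNAs were looked up among 367 other miRNAs with a mean of at least 10 CPM, as a description over 6 libraries. Nearest to the mean of the 8 were miR-9-5p (r = 0.99), miR-183-5p (0.99), miR-135a-2-3p (0.98), miR-96-5p (0.98) and miR-375-3p (0.97). Of these miR-9-5p is abundant in neural progenitors and glia, and miR-183-5p and miR-96-5p in photoreceptors. Nearest to miR-128-3p were miR-100-5p (r = 0.99), miR-676-5p (0.97), miR-499-5p (0.97), miR-195a-3p (0.96) and miR-125a-3p (0.96). Of these miR-499-5p lies in an intron of a myosin heavy chain gene expressed in heart and slow muscle. It was at 75.5, 72.4 and 104 CPM in the CNV pools and 53.1, 218 and 168 CPM in the control pools, with control replicate 1 the lowest. Its log2 fold change was -0.80, whereas the skeletal muscle list had a median of 0.17. That median takes in control replicate 1, where the list lay at -0.98 log2 units from its control mean. The other control pools were at 0.56 and 0.42, and the CNV pools at 0.60, 0.24 and 0.06. No neuronal or photoreceptor miRNA of the comparison lists was among the 5 nearest to miR-128-3p.

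Ratios of counts within a library do not depend on how libraries are scaled, and 5 were compared over the 6 libraries with exact two-sided permutation tests, whose smallest possible p is 0.1. The ratio of miR-129-5p, which both miR-129 genes make, to miR-129-2-3p, made by one of them, was 3.76, 3.96 and 6.24 in the CNV pools and 4.72, 6.62 and 5.32 in the control pools. The groups overlapped, with a difference of -0.28 log2 units (exact p = 0.3), which was -0.51 without CNV replicate 3 and -0.15 without CNV replicate 1 or control replicate 2. The ratio of miR-129-2-3p to miR-129-1-3p was 7.57, 7.41 and 5.53 in CNV and 5.74, 6.11 and 6.28 in control, a difference of 0.16 (exact p = 0.4), which was 0.31 without CNV replicate 3, 0.08 without CNV replicate 1 and 0.10 without CNV replicate 2. For miR-135a-5p over miR-135b-5p the ratio was 6.54, 7.90 and 11.3 in CNV and 7.22, 10.9 and 8.98 in control, a difference of -0.09 (exact p = 0.8). Reads that match both miRNAs of a pair, counted for either or for both, would alter these last 2 ratios.

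Set against miR-128-3p, the rarer miR-137-3p and miR-138-5p varied widely. There were 127, 264 and 279 counts of miR-128-3p for each of miR-137-3p in the CNV pools, and 49.1, 247 and 145 in the control pools. For each count of miR-138-5p there were 25.1, 32.8 and 56.5 in CNV and 8.64, 53.4 and 36.1 in control. Control replicate 1 had the fewest in both. The log2 ratios over miR-128-3p differed by -0.81 for miR-137-3p (exact p = 0.5) and by -0.49 for miR-138-5p (exact p = 0.8), and without control replicate 1 by -0.16 and 0.29. The adjusted p over the 5 ratios was 0.8 for each, so no difference between CNV and control in these ratios was detectable with 3 pools a group.

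**Figure D4:**
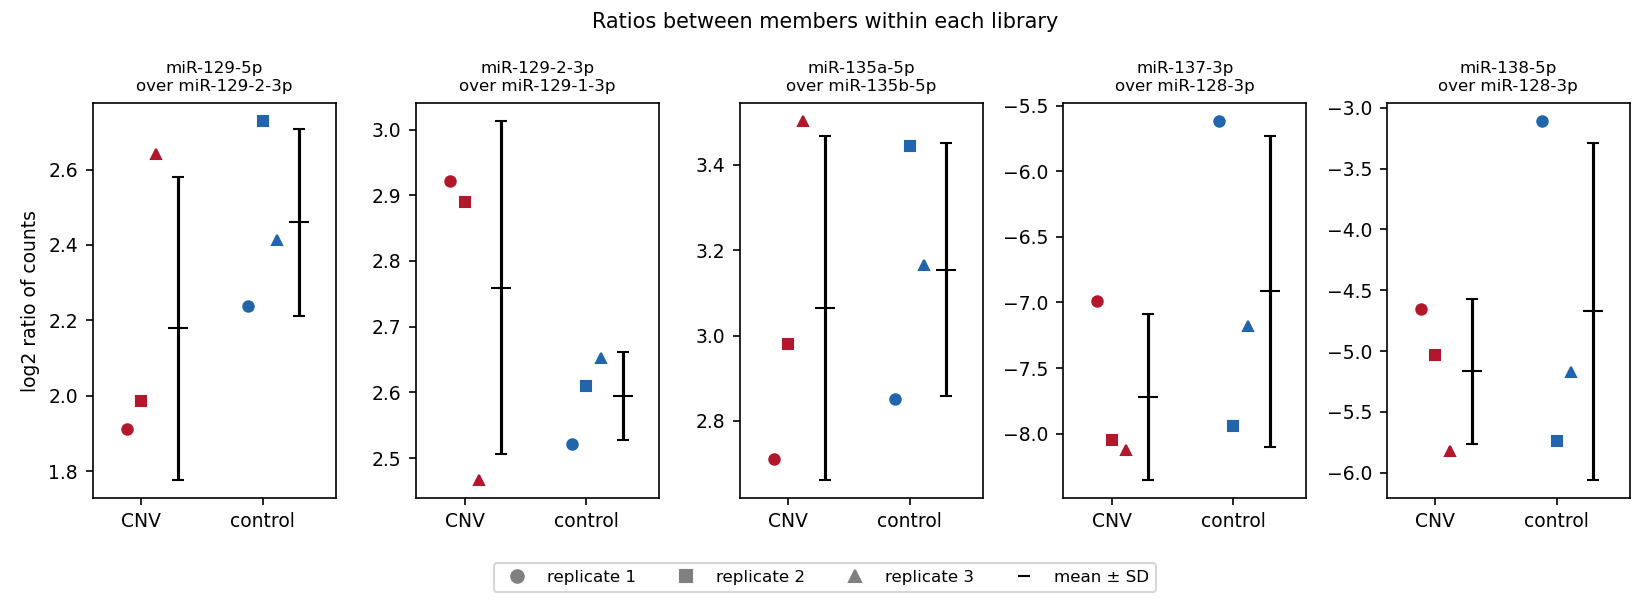
Log2 ratio of counts (vertical axis, not starting at 0) for each of 5 pairs of the miRNAs in the CNV and control libraries, with a marker shape per replicate and the mean ± SD beside the points. The groups overlap in every panel, and control replicate 1 is the highest point in both ratios over miR-128-3p.

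Other neural miRNAs, in a list of 20 of which 19 were tested, were compared with the 8. Of the 19, 15 were lower and 4 higher in CNV, with a median log2 fold change of -0.53. The 4 higher were miR-132-3p, miR-212-3p, miR-219a-2-3p and miR-326-3p. Of these miR-132-3p was nearly level, at 136, 125 and 139 CPM in the CNV pools and 134, 116 and 139 CPM in the control pools. At an unadjusted p under 0.05, 9 of the 19 were lower, against 9.06% of the tested miRNAs, and none passed the adjusted threshold. The groups did not overlap for 8 of the 19, all lower, against 11.3% of the tested miRNAs. The list's 3 most abundant miRNAs were miR-181a-5p, also made in lymphocytes, miR-9-5p, and the neuronal miR-124-3p. The level of miR-124-3p was 2760, 1454 and 4090 CPM in the CNV pools and 8293, 4168 and 5361 CPM in the control pools, again lowest in CNV replicate 2 within the CNV group and in control replicate 2 within the control group.

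The photoreceptor list moved with the 8. All 6 of its miRNAs were lower in CNV, with a median log2 fold change of -0.85. They are both arms of miR-182, miR-183 and miR-96, which lie in the same cluster, so the 6 are not independent of each other. Of the 6, 4 were lower at an unadjusted p under 0.05, against 9.06% of the tested miRNAs. None passed the adjusted threshold. The groups did not overlap for 2 of the 6, with CNV lower, against 11.3% of the tested miRNAs. Relative to its control mean the list lay at -0.97, -1.30 and -0.29 log2 units in the CNV pools and at 0.27, -0.39 and 0.12 in the control pools. The 8 miRNAs on average were at -0.70, -1.29 and -0.57 in the CNV pools and at 0.11, -0.29 and 0.18 in the control pools. Both averages were lowest in CNV replicate 2 and, among control pools, in control replicate 2. From the neuronal miRNAs in these pools, RNA of photoreceptors and RNA of inner retinal neurons cannot be told apart, and the part of carried-over neural retina in the levels was not tested.

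The RPE list was lower in CNV as well, with 4 of 4 miRNAs negative and a median of -0.44. Of the 4, 2 were lower at an unadjusted p under 0.05, against 9.06% of the tested miRNAs. The groups did not overlap for 3 of the 4, with CNV lower, against 11.3% of the tested miRNAs. The leukocyte list, with miR-142a, miR-223, miR-150, miR-155 and miR-146, had 7 of 8 higher in CNV, a median of 0.69 and 6 higher at an unadjusted p under 0.05, against 8.50% of the tested miRNAs. Its summed level was 4277 to 6858 CPM in CNV and 2928 to 4086 CPM in control. The 1 miRNA of this list that was lower in CNV was miR-150-5p. It was at 171, 148 and 138 CPM in the CNV pools and at 231, 224 and 182 CPM in the control pools. No miRNA of either list was at 0 in all libraries, and none passed the adjusted threshold. Relative to its control mean the leukocyte list lay at 0.79, 0.65 and 0.36 log2 units in the CNV pools and at 0.05, -0.01 and -0.04 in the control pools. Its part in the lower CPM of the neuronal miRNAs was not tested.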

How the data were processed

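Small RNA inserts of 14 to 40 nt were sequenced, per the labels' protocols, from 3 CNV and 3 control pools of 4 eyes. The authors' deposited tables give a raw read count per mature miRNA and per tRNA-derived small RNA. The submitters' processing notes name Bowtie, with no version. The genome build and the handling of reads that match several miRNAs were not stated in the labels or the tables. The CPM column beside the counts was not used.

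Groups and replicate numbers came from the sample titles. Replicate pools differed by far more than sampling noise (a chi-square of 121 to 682 per miRNA), so none was a library deposited again. Counts were analysed in R 4.3.3 with edgeR 4.0.16. Small RNAs were kept by filterByExpr (minimum count 10, minimum total 15), miRNAs and tRNA-derived RNAs were scaled together with TMM factors, and CNV was tested against control with the quasi-likelihood test and Benjamini-Hochberg adjustment over all 997 at 0.05. Log2 levels used a prior count of 2, and 0.5 was added to each count in ratios. DESeq2 1.42.0, limma-voom (limma 3.58.1), other scalings and filters, a replicate block and leaving out each pool were alternatives. The test was checked on simulated data.

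The 8 miRNAs, the ratios and the comparison lists (other neural, photoreceptor, RPE, leukocyte, endothelial, fibroblast and mural, skeletal muscle, erythrocyte) were chosen with earlier results of these data known. All 8 are described. Other miRNAs named are the opposite arms, the 5 nearest in pattern, the most abundant of the lists, and those that went against most of their list. The listed values of miR-206-3p and miR-499-5p were picked out after they were seen.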

Additional observations from a re-analysis of the deposited data

How the results depend on the processing

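Under the 14 alternatives for the fold changes, each of the 8 miRNAs kept a negative log2 fold change wherever it was tested. edgeR called 3 small RNAs and none of the 8. DESeq2 called 38 and 1, limma-voom 3 and 0, and miRNAs fitted alone 6 and 0. With no filter on low counts 88 small RNAs and 8 of the 8 were called, against 1.74% of the 1836 miRNAs called lower, and the cause was not tested. With a mean of at least 20 CPM, 5 of the 8 remained in the test and no small RNA was called. Of those 5, 4 were lower at an unadjusted p under 0.05, against 11.5% of the miRNAs tested there, and 3 did not overlap between groups, against 13.7%. Whether the replicate numbers pair the pools could not be settled by the deviations from the group means. For the same numbers 1 to 3, r was 0.287, 0.030 and 0.172, and for different numbers -0.257 to 0.152. Each CNV pool had its highest r with the control pool of its number, but control replicate 2 had its highest with CNV replicate 3. With the replicate block 36 small RNAs and 3 of the 8 were called, against 2.22% of the miRNAs called lower.

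Leaving out a pool gave 0 to 24 small RNAs called, 0 to 1 of the 8 called, against 0.00% to 1.26% of the miRNAs called lower, and 4 to 7 of the 8 lower at an unadjusted p under 0.05, against 3.40% to 14.1%. The difference in the ratio of miR-135a-5p to miR-135b-5p ran from -0.31 to 0.087 log2 units, above 0 without CNV replicate 1 (0.087) or control replicate 2 (0.055). That of miR-138-5p to miR-128-3p ran from -1.03 to 0.29, above 0 without control replicate 1, and that of miR-137-3p to miR-128-3p from -1.32 (without control replicate 2) to -0.16 (without control replicate 1). The depth limits miR-137-3p most, with 7 to 54 counts a library.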

Other observations

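Among the remaining comparison lists, the endothelial miR-126a-3p was at 33454, 34359 and 40671 CPM in the CNV pools and 32858, 39164 and 42998 CPM in the control pools, with a log2 fold change of -0.08, and miR-126a-5p had a log2 fold change of -0.28. All 5 fibroblast and mural cell miRNAs were higher in CNV, with a median log2 fold change of 0.35. The 4 skeletal muscle miRNAs were all slightly higher in CNV, with a median of 0.17 and overlapping groups, and each was lowest in control replicate 1. The 3 erythrocyte miRNAs had a median of 0.30, and miR-451a was at 2934, 2301 and 449 CPM in the CNV pools and 1461, 1259 and 599 CPM in the control pools. No miRNA of these 4 lists passed the adjusted threshold in edgeR's test.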
